A study of Mus musculus with 40 samples.

Results

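The CXC chemokine system genes described here do not belong to the neutrophil-attracting group and were followed through a mouse colon adenoma series. They are the ligands Cxcl9, Cxcl10, Cxcl12, Cxcl13, Cxcl14 and Cxcl16 and the receptors Cxcr3 and Cxcr6. They were chosen by name, as the 8 rows with these symbols among 45706 genes in the deposited tables. No limit on measured values was applied, but the choice was made with earlier results of these data known. On mm10, Cxcl9 lies at chr5:92321347-92328079, Cxcl10 at chr5:92346638-92348889 and Cxcl13 at chr5:95956951-95961068. Cxcl12 lies at chr6:117168535-117181367, Cxcl14 at chr13:56288643-56296551 and Cxcl16 at chr11:70453983-70459984. The receptor Cxcr3 lies at chrX:101731535-101734269 and Cxcr6 at chr9:123806475-123811760.

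Chemokines are small secreted proteins that guide leukocytes through receptors of the G protein-coupled class. Cxcl9 and Cxcl10 are induced by interferons and bind Cxcr3, which activated T cells and natural killer cells carry. Cxcl12 is made by stromal cells and binds Cxcr4 and the scavenging receptor Ackr3, Cxcl13 draws B cells through Cxcr5, and Cxcl16 is a membrane-bound chemokine that is shed by Adam10 and Adam17 and binds Cxcr6. Cxcl14 is expressed in many epithelia and by fibroblasts, and its receptor is less well settled.

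RNA was sequenced from sorted cells of 10 groups with 4 libraries each, 40 libraries in all. Tumor-bearing mice (strain label C57Bl6/Sv129, with a number that runs on from library to library) carried the Cdx2CreERT2 - Apc fl/fl transgene, in which the Cdx2 promoter directs recombinase to the colon epithelium, and received 1 intraperitoneal injection of Tamoxifen at 25 mg/kg when 8 to 10 weeks old. Neutrophils, monocytes, EpCAM+ epithelial cells and EpCAM- CD45- stromal cells were sorted from their colon tumors, and neutrophils and monocytes from their blood. Healthy C57Bl6 mice, with no transgene and no agent named and no age given, provided blood neutrophils, blood monocytes, and epithelial and stromal cells of the colon. Strain, transgene and Tamoxifen therefore cannot be told apart from tumor burden in every comparison of tumor-bearing with healthy mice. The titles of 4 blood libraries join 2 animal numbers each. Some animal numbers recur in the titles of several groups, so libraries of different groups can share an animal. These numbers were used only as a block in an alternative test among tumor cell types.

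The libraries held 10717873 to 38002939 counts on genes, with a median of 16338416, and mitochondrial genes took 5.34% to 83.9% of them. Tumor stromal replicates 1 and 2 held summed endothelial marker levels of 4.78 and 3.98 RPKM against 148 and 149 in replicates 3 and 4, and summed epithelial marker levels of 248 and 141 against 58.6 and 33.4. All 4 tumor stromal libraries held fibroblast markers at only 7.42 to 27.3 RPKM in sum, against 514 to 2709 in healthy stroma, and replicates 3 and 4 also held neutrophil markers at 1600 and 543. Tumor neutrophil replicate 1 had the highest epithelial sum of any leukocyte library, 182 RPKM, and the lowest neutrophil sum of its group, 1928. In sorted bulk RNA, fewer cells of a type and less RNA per cell cannot be told apart.

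Because Cxcl9 and Cxcl10 are neighbours on chromosome 5 and moved alike between several groups, the bases before both start sites are shown, from RefSeq (GRCm38.p6), 5′ to 3′ on the gene's strand. Capitals mark an interferon-stimulated response element (GAAA, any 2 bases, GAAA) or a kappaB site (GGGA, any base, TT, any base, CC), both searched on both strands. The 250 bases end 1 base before the start site, at chr5:92348890-92349139 (minus strand) for Cxcl10 and at chr5:92328080-92328329 (minus strand) for Cxcl9.
Cxcl10: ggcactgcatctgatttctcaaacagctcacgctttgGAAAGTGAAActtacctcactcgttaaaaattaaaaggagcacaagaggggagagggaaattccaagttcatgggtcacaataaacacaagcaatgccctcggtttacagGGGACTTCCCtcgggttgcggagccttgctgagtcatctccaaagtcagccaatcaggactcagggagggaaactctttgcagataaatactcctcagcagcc
Cxcl9: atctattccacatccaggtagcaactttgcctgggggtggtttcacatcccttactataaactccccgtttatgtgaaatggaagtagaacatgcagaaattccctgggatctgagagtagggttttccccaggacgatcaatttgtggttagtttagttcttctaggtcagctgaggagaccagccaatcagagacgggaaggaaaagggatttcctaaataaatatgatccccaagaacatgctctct
The Cxcl10 window held the first motif at -213 to -204 and the second at -103 to -94, and they did not overlap. Neither motif, nor a gamma-activated site (TTC, any 3 bases, GAA), had a match in the Cxcl9 window, which says only that these letters are not there. Among the 32851 RefSeq promoters of 300 bases, 3.44% held the first motif, 1.20% the kappaB letters and 8.30% the gamma-activated letters. Promoters were found for 7 of the 8 genes, and of the others Cxcl14 held a response element at -172 to -163 and a gamma-activated site at -191 to -183.

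Levels are given as RPKM, reads scaled by gene length and by library, which may be compared between genes. Between groups they depend on the library scaling. TMM-scaled RPKM, with edgeR's TMM library factors over all 40 libraries, kept the highest group of each gene but changed the second group of Cxcl9 and Cxcl13. On that scale Cxcl10 spanned 23.8 to 47.3 in healthy stroma and was at least 21.9 in tumor monocytes. Cxcl10 had group means above 1 RPKM in every group except the blood neutrophils of tumor-bearing mice. Cxcl9, Cxcl10 and Cxcl16 had their highest mean in tumor monocytes, Cxcl12, Cxcl13 and Cxcl14 in healthy stroma, Cxcr3 in healthy blood neutrophils and Cxcr6 in the blood monocytes of tumor-bearing mice. For Cxcl9 and Cxcl10 that rank rests on tumor monocyte replicate 1, at 107 and 382 RPKM. The other tumor monocyte replicates stood at 2.60 to 11.6 RPKM for Cxcl9 and 21.1 to 24.4 for Cxcl10, within or below the 2.58 to 18.2 and 37.6 to 68.1 of healthy stroma. The median of Cxcl10 was 23.8 RPKM in tumor monocytes and 52.6 in healthy stroma. That of Cxcl9 was 9.44 RPKM in tumor monocytes and 9.05 in healthy stroma. Of the 72 pairs of neighbouring groups in these orders, 3 did not overlap in their libraries: Cxcl16 between tumor monocytes and tumor stroma, Cxcl10 between blood monocytes and blood neutrophils of tumor-bearing mice, and Cxcl12 between the same blood groups. Each of the 3 had a 2-sided exact permutation p of 0.0286, the smallest that 4 against 4 libraries allow, and an adjusted p of 0.686 over the 72 pairs. All other neighbours in the orders overlapped.

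**Figure D1:**
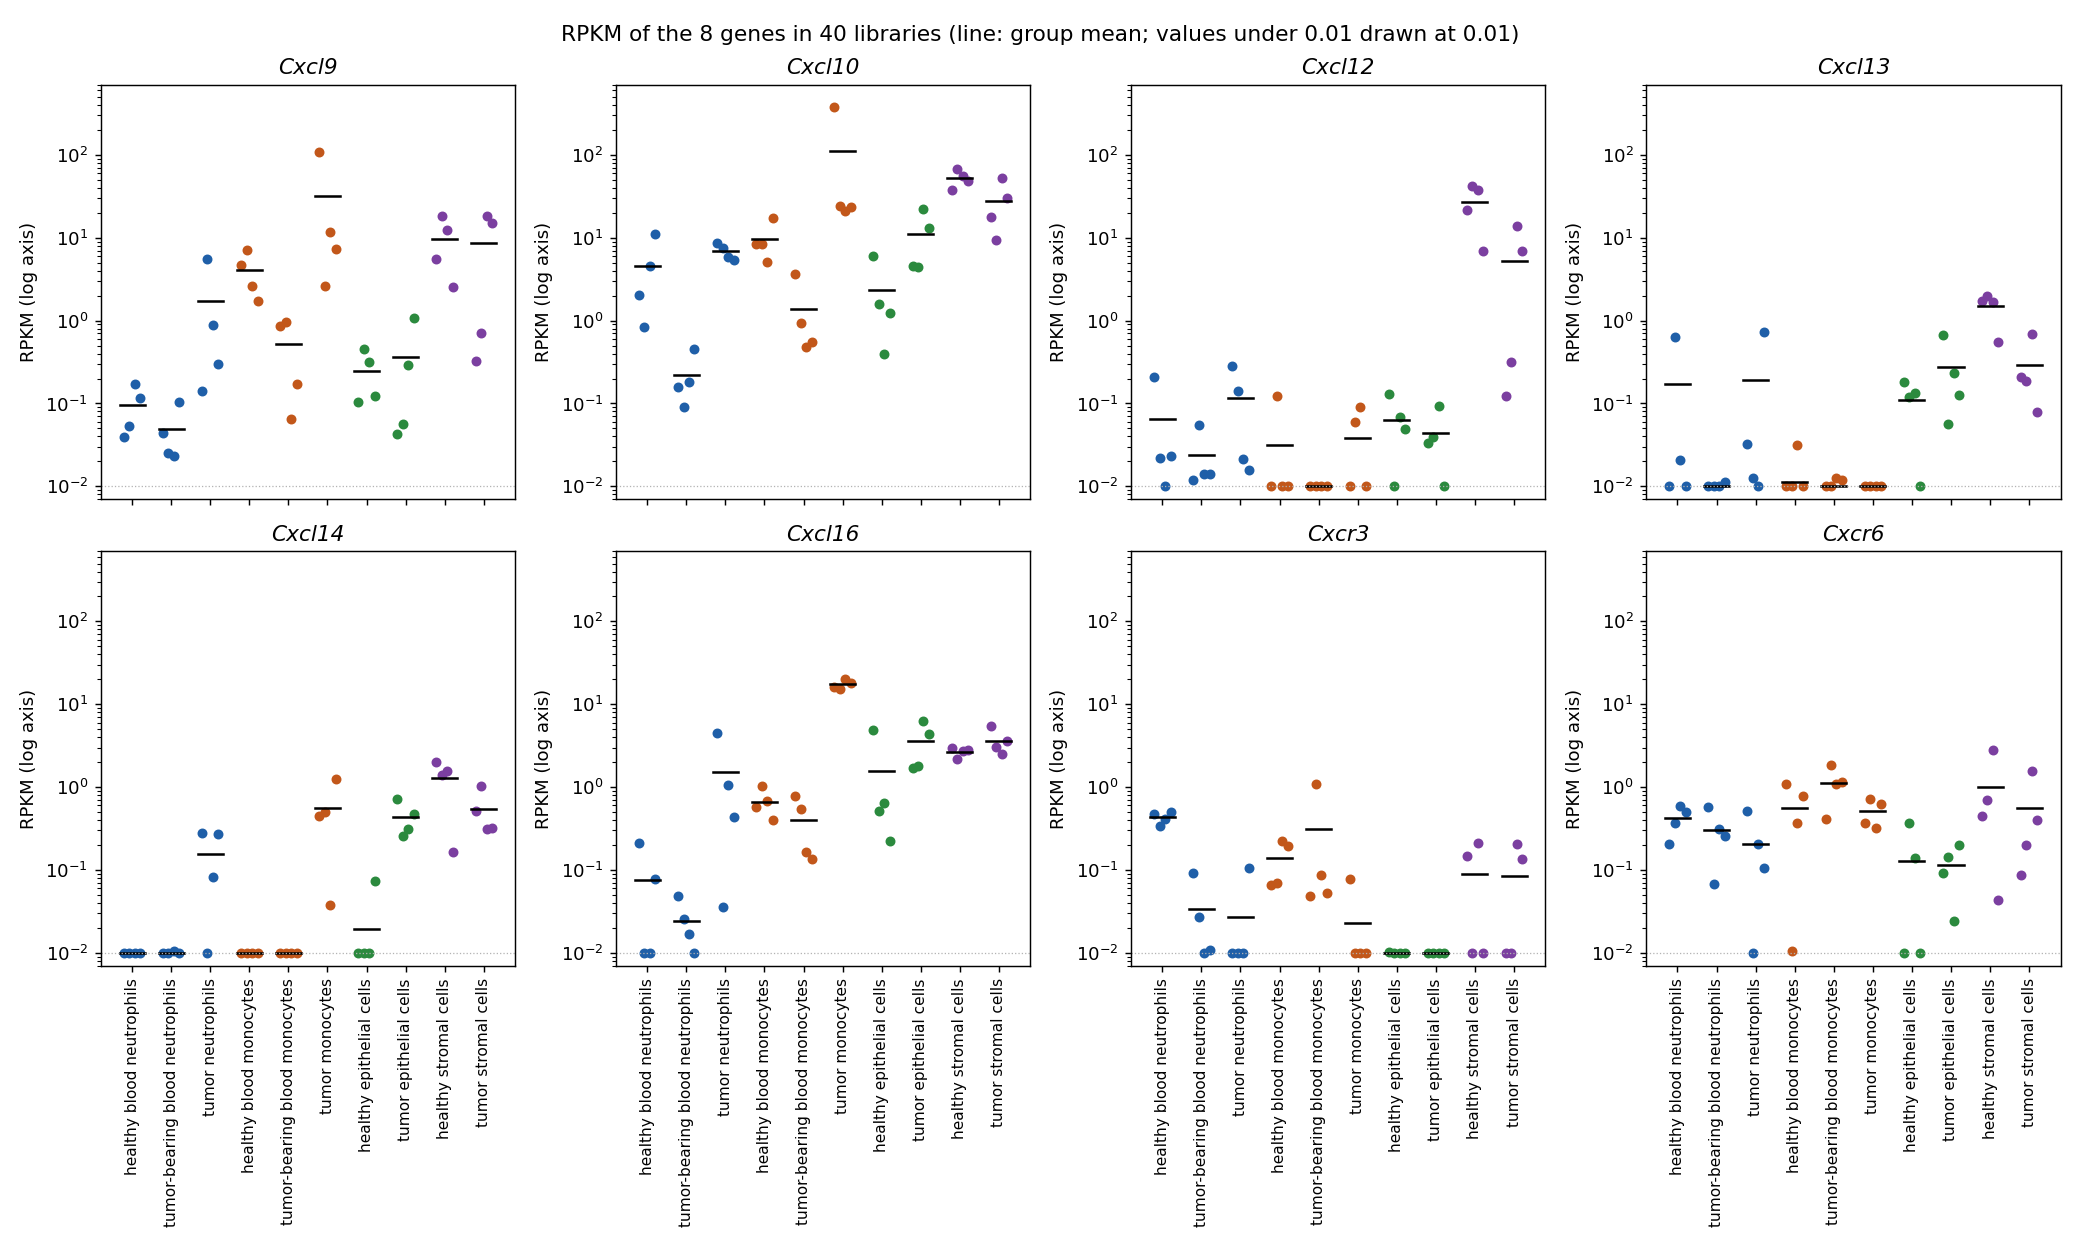
RPKM of each gene (log axis) in the 4 libraries of each group (points) with the group mean (line); blue marks neutrophils, orange monocytes, green epithelial and purple stromal cells, and values under 0.01 are drawn at 0.01. Cxcl16 in the 4 tumor monocyte libraries sits between 15.2 and 20.2 RPKM, above every other library, while Cxcl12 exceeds 1 RPKM only in stromal libraries.

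Blood and tumor leukocytes of the same kind of mouse were compared to see which ligands differ between circulation and tumor. Both Cxcr3 ligands were higher in tumor neutrophils than in the blood neutrophils of tumor-bearing mice. Cxcl10 stood at 8.58, 7.55, 5.83 and 5.43 RPKM in the 4 tumor libraries and at 0.159, 0.0897, 0.184 and 0.455 in blood. The groups were wide apart, with a log2 fold change of 5.02 ± 0.63 (SE, n = 4 per group) and an edgeR quasi-likelihood adjusted p of 8.0e-04. Cxcl9 stood at 0.141, 5.53, 0.892 and 0.303 RPKM in tumor neutrophils and at 0.0443, 0.0254, 0.0234 and 0.104 in blood. On RPKM these groups did not overlap either, but tumor replicate 2 was far above the rest. On TMM-scaled RPKM they overlapped, with the lowest tumor library at 0.127 and the highest blood library at 0.147. The change was 5.60 ± 1.37 in log2 (edgeR adjusted p = 0.0181), or 3.03 ± 0.84 without tumor replicate 2. The Cxcl9 call was lost on leaving out blood replicate 1, 2 or 3, where the adjusted p was 0.0540, 0.0573 and 0.0572. Of 6 alternatives with all libraries, 4 called Cxcl9.

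A gene was called where its adjusted p fell under 0.05 and its log2 fold change passed 1.5 in size. By this rule 2 of the 4 members tested were higher in tumor neutrophils and none was lower, where 11.9% of the 13674 genes tested were called higher and 4.41% lower. Cxcl12 (2.39 ± 1.04 in log2, adjusted p = 0.141) and Cxcr6 (-0.74 ± 1.06, adjusted p = 0.667 in edgeR) were not called. Cxcl13, Cxcl14, Cxcl16 and Cxcr3 did not pass the filter on low counts. Cxcl16 stood at 4.54, 0.0360, 1.05 and 0.437 RPKM in tumor neutrophils and at most 0.0485 in blood, and the library at 4.54 was replicate 1, which held the most epithelial markers. In this comparison 8 of 9 epithelial markers tested were also called higher, with sums of 13.2 to 182 RPKM in the tumor and 0.679 to 1.60 in blood, as were 3 of 7 fibroblast markers, and their part in the ligand values was not tested. Tested without the filter, Cxcl16 was called (5.54 ± 1.19, adjusted p = 0.0120 in edgeR). Cxcl14 reached 0.279 RPKM in tumor neutrophils and stayed under the floor of 3 counts in every blood library, which makes it at least 4.69-fold higher in the tumor, with 3 of 4 tumor libraries above the floor.

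In monocytes, 3 ligands were higher in the tumor than in the blood of tumor-bearing mice. Cxcl16, a scavenger receptor as well as a chemokine, stood at 15.99, 15.2, 20.2 and 18.002 RPKM in the tumor and 0.778, 0.545, 0.167 and 0.135 in blood. No blood library came near the tumor ones, and the log2 change was 5.69 ± 0.56 (edgeR adjusted p = 9.4e-05), called in every alternative run. Cxcl10 stood at 382, 24.4, 21.1 and 23.3 RPKM in tumor monocytes and at 3.61, 0.942, 0.481 and 0.557 in blood. Cxcl9 stood at 107, 2.60, 11.6 and 7.25 RPKM in the tumor and at 0.862, 0.970, 0.0646 and 0.172 in blood. All tumor values of both genes exceeded all blood values, and tumor replicate 1 was the highest for each.

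The log2 change in monocytes was 6.67 ± 1.27 for Cxcl10 (edgeR adjusted p = 0.00522) and 6.26 ± 1.34 for Cxcl9 (adjusted p = 0.00982). Without tumor replicate 1 the changes were 4.31 ± 0.65 (adjusted p = 0.00262) and 4.08 ± 0.88 (adjusted p = 0.0148 in edgeR), both still called. In alternatives with all libraries and an adjusted p, Cxcl10 was called in 6 of 6 and Cxcl9 in 6 of 7. Epithelial markers rose here too, 4 of 6 tested, with sums of 1.77 to 37.0 RPKM in tumor and 0.582 to 1.00 in blood monocytes, and their part was not tested. The 3 of 4 members called compare with 7.76% of 15280 genes called higher and 3.89% lower. The receptor Cxcr6 was the fourth member tested and was not called (-0.94 ± 0.56, adjusted p = 0.284). Cxcl14 was not tested with the filter, stood at 0.449, 0.503, 0.0382 and 1.25 RPKM in tumor monocytes and was under the floor in all 4 blood libraries. That is at least 23.6-fold higher, with all 4 tumor libraries above the floor. Cxcl12 was also under the floor in blood monocytes and at most 0.0908 RPKM in the tumor, and Cxcr3 had at most 7 counts in a tumor monocyte library.

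An interaction term compared the blood-to-tumor changes of the 2 leukocyte types for 7 members. None was called at an adjusted p under 0.05, where 3.99% of the 17465 genes tested were, and 0 had an unadjusted p under 0.05. For Cxcl10 the adjusted p was 0.445, for Cxcl9 0.844 and for Cxcl16 0.964 (edgeR). The larger fold changes of Cxcl9 and Cxcl10 in monocytes are thus not shown to differ from those in neutrophils.

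**Figure D2:**
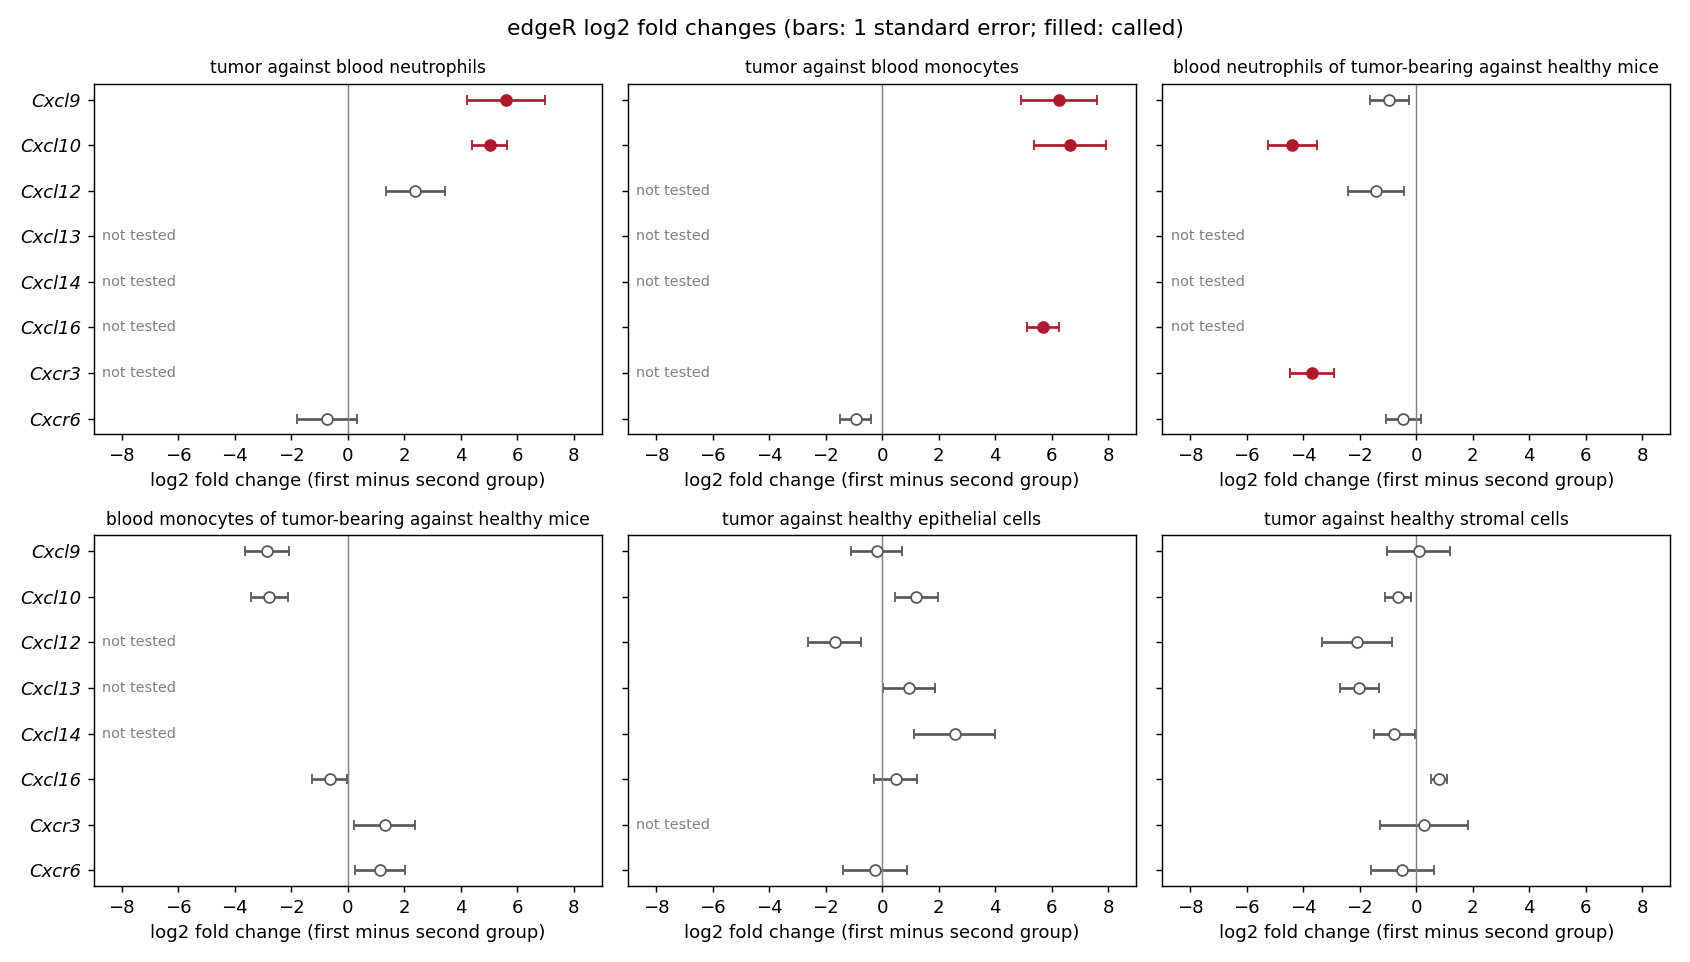
Log2 fold change (points) with 1 standard error (bars) of each gene in 6 comparisons of 4 against 4 libraries, edgeR; filled red points were called, and genes that failed the count filter are marked as not tested. Cxcl9 and Cxcl10 lie above 5 in both comparisons of tumor with blood leukocytes, and Cxcl10 lies at -4.40 between blood neutrophils of tumor-bearing and healthy mice.

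Partners of these ligands were read from a list of 8 receptor and processing genes. In tumor monocytes 3 of the 7 tested were higher and none lower than in blood, where 7.76% of all genes were called higher and 3.89% lower, with a list median log2 change of 1.12 against -0.03 for all genes. Cxcr4, the Cxcl12 receptor, rose from 6.84 ± 3.92 to 51.1 ± 10.3 RPKM (SD, n = 4), a log2 change of 3.16 ± 0.41 (edgeR adjusted p = 5.6e-04). Ackr3 and Cxcl11, the third Cxcr3 ligand, were the other calls, with tumor means under 2 RPKM. Adam17, which sheds Cxcl16, was 11.6 ± 1.7 RPKM in tumor and 6.48 ± 1.73 in blood monocytes (1.12 ± 0.23, adjusted p = 0.00842), under the fold limit. In neutrophils none of the 6 tested rose and Ackr4, a scavenging receptor, fell, where 11.9% of all genes were called higher and 4.41% lower, while Cxcr4 was 38.5 ± 13.6 RPKM in the tumor and 22.7 ± 8.2 in blood (0.93 ± 0.49, adjusted p = 0.223 in edgeR).

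The interferon gamma pathway list holds 20 genes (receptors, signalling genes and known targets). From blood to tumor, 2 of 19 tested were higher in neutrophils, where 11.9% of all genes were, and 4 of 18 in monocytes, where 7.76% were, with none lower in either. Cd274, which encodes the inhibitory ligand PD-L1, rose in both, from 2.91 ± 1.49 to 60.0 ± 26.6 RPKM in neutrophils (4.56 ± 0.67 in log2, adjusted p = 0.00153) and from 1.09 ± 0.11 to 44.0 ± 33.5 in monocytes (5.60 ± 0.51, adjusted p = 6.0e-05). Gbp5 rose in both as well, and Jak2 and Iigp1 in monocytes. The list medians were 0.19 and 0.69 in log2 against 0.11 and -0.03 for all genes. Summed over the list, tumor monocyte replicate 1 held 432 RPKM and the other replicates 127, 105 and 151, so the library with the highest Cxcl9 and Cxcl10 also held the highest sum, and its part in their means was not tested.

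The blood of tumor-bearing and healthy mice was compared to see whether circulating cells already differ. These comparisons use the same blood libraries of tumor-bearing mice as those with the tumor. Tumor leukocytes were not tested against healthy blood in edgeR. Healthy blood neutrophils overlapped tumor neutrophils in Cxcl10 (0.845 to 11.0 against 5.43 to 8.58 RPKM) and Cxcl9 (0.0389 to 0.171 against 0.141 to 5.53). Healthy blood monocytes overlapped tumor monocytes in Cxcl9 (1.72 to 7.06 against 2.60 to 107). They did not in Cxcl10 (at most 17.2 against at least 21.1) or Cxcl16 (at most 1.03 against at least 15.2). In blood neutrophils, Cxcl10 and Cxcr3 fell. Cxcl10 stood at 2.05, 0.845, 4.53 and 11.0 RPKM in healthy mice and at 0.159, 0.0897, 0.184 and 0.455 in tumor-bearing mice. All healthy values exceeded all others, with a log2 change of -4.40 ± 0.87 (edgeR adjusted p = 0.0167). Cxcr3 stood at 0.475, 0.343, 0.414 and 0.499 RPKM, or 42.8 to 61.9 counts, in healthy mice and at 0.0919, 0.0268, 0.00508 and 0.0108 in tumor-bearing mice. The groups did not overlap, and the change was -3.69 ± 0.79 (edgeR adjusted p = 0.0228), although these levels are low.

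These 2 of 5 members tested compare with 2.22% of 13360 genes called lower and 1.79% higher, and no member was higher. The call of Cxcl10 was lost without tumor-bearing replicate 1 or 2 (adjusted p 0.0608 and 0.0588) and in limma-voom (0.0797). That of Cxcr3 was lost without healthy replicate 3 or tumor-bearing replicate 2 or 4 (0.0680, 0.0770 and 0.0576), with the replicate number as a block (0.0649) and in 1 fit of all 40 libraries (0.229). Neutrophil markers summed to 3751 to 8573 RPKM in healthy and 15818 to 20388 in tumor-bearing blood neutrophils, and T and natural killer cell markers to 1.71 to 7.13 and 1.31 to 4.93. Their part in the result was not tested. Cxcl9, at most 0.171 RPKM in both groups, was not called (-0.95 ± 0.68, adjusted p = 0.466 in edgeR), nor were Cxcl12 and Cxcr6.

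In these neutrophils, 8 of the 19 interferon gamma pathway genes tested were lower and none was higher. The other 11 were not called, Gbp2 among them (adjusted p = 0.0780 in edgeR). Of the 19, 17 had a negative estimate, and the median log2 change was -1.74 against -0.01 for all genes, of which 2.22% were called lower. Among those called were Gbp3, Gbp5 and Igtp, which encode interferon-induced GTPases, the antigen processing genes Psmb8, Tap1 and Nlrc5, and Cd274. Cd274 was 27.8 ± 15.9 RPKM in healthy and 2.91 ± 1.49 in tumor-bearing blood neutrophils (-3.25 ± 0.56, adjusted p = 0.00964), and Igtp 20.4 ± 11.2 and 4.56 ± 1.25 (-2.17 ± 0.42, adjusted p = 0.0162 in edgeR). The list summed to 142, 146, 198 and 345 RPKM in healthy and to 96.5 to 100 in tumor-bearing libraries, and healthy replicate 4 was highest both in this sum and in Cxcl10.

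In blood monocytes no member was called, where 0.0914% of 15313 genes were called higher and 0.118% lower. Cxcl10 stood at 8.34, 8.48, 5.05 and 17.2 RPKM in healthy and at 3.61, 0.942, 0.481 and 0.557 in tumor-bearing mice. Cxcl9 stood at 4.75, 7.06, 2.62 and 1.72 RPKM in healthy and at 0.862, 0.970, 0.0646 and 0.172 in tumor-bearing mice. The groups of both genes did not overlap, with log2 changes of -2.78 ± 0.66 (edgeR adjusted p = 0.132) and -2.86 ± 0.78 (adjusted p = 0.201). At an unadjusted p under 0.05 these were the 2 members of 5 (edgeR), and DESeq2 called both, with adjusted p-values of 0.00205 and 0.00850. None of the 18 interferon list genes tested was called and 17 had a negative estimate, with a median of -0.64 against 0.02 for all genes. T and natural killer cell markers summed to 3.45 to 42.6 RPKM in healthy and 1.88 to 33.5 in tumor-bearing blood monocytes, and were not tested for their part in these values.

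**Figure D3:**
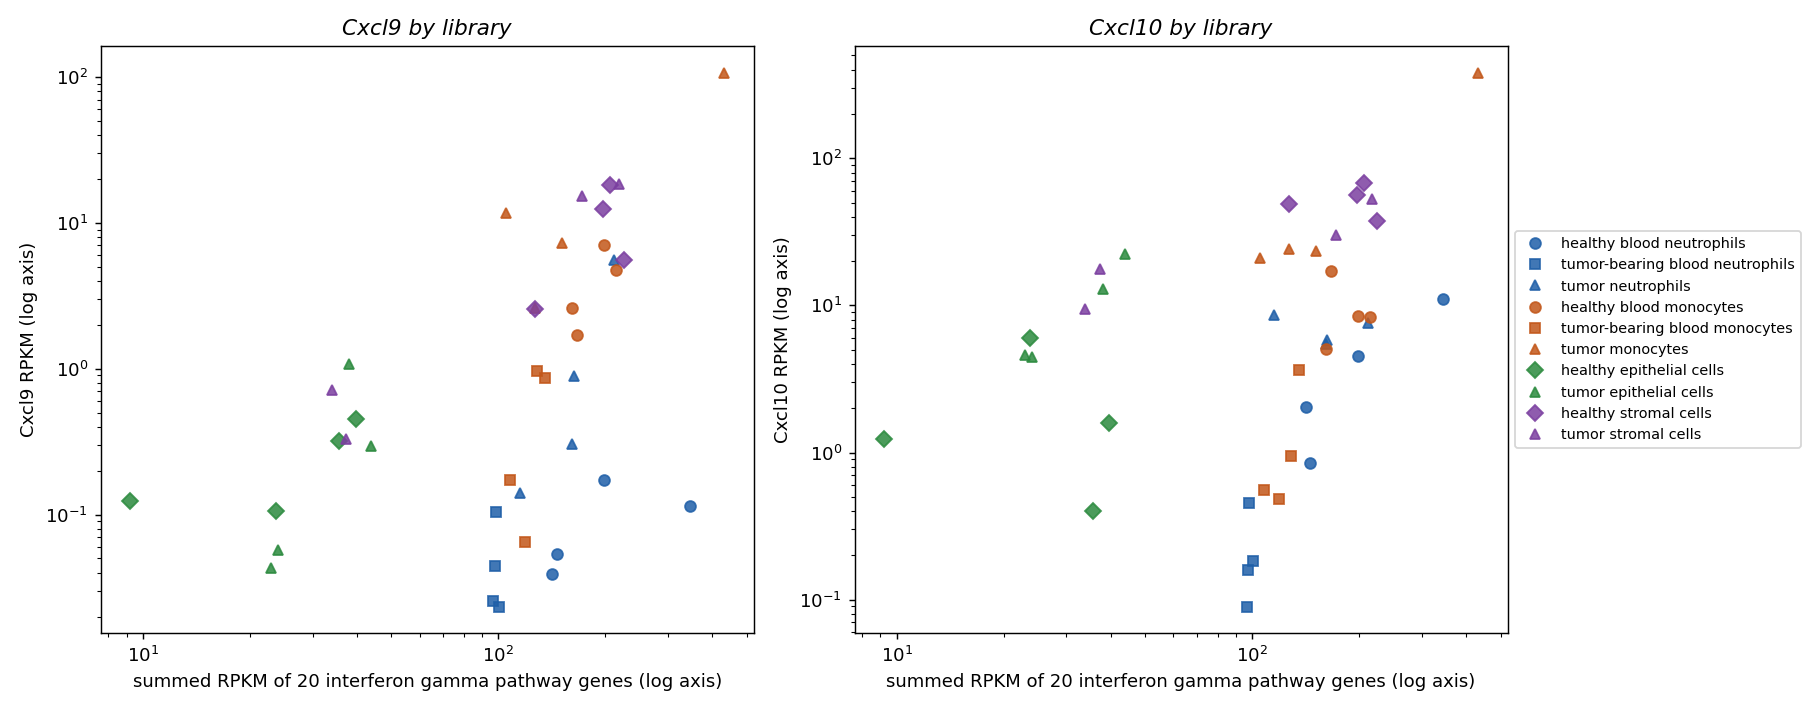
Cxcl9 (left) and Cxcl10 (right) RPKM against the summed RPKM of the 20 interferon gamma pathway genes in each of the 40 libraries, all on log axes; colours mark cell types as above and shapes mark healthy blood, blood of tumor-bearing mice, tumor and healthy colon. The 4 blood neutrophil libraries of tumor-bearing mice lie between 96.5 and 100 RPKM of the list and between 0.0897 and 0.455 RPKM of Cxcl10, and tumor monocyte replicate 1 is highest on every axis.

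Within healthy blood, Cxcl9 was higher in monocytes than in neutrophils, with the monocyte values above against 0.0389, 0.0538, 0.171 and 0.115 RPKM in neutrophils (4.52 ± 0.66 in log2, edgeR adjusted p = 4.1e-04). Cxcr3 was lower in monocytes, at 0.0651, 0.0698, 0.222 and 0.194 RPKM (-2.41 ± 0.57, adjusted p = 0.00608), and was called in 5 of 6 alternatives with all libraries. These 2 of 6 members tested compare with 20.4% of 15033 genes called higher and 16.7% lower, so the count is near the background. Cxcl16 was 0.670 ± 0.266 RPKM in monocytes and 0.0758 ± 0.0958 in neutrophils without overlap, and was not called (2.42 ± 0.96, adjusted p = 0.0591 in edgeR). DESeq2, limma-voom and the fit of all 40 libraries called it. Cxcl10 was not called, with a log2 difference of 0.25 ± 0.72 (adjusted p = 0.790).

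Stromal and epithelial cells of the healthy colon were compared for the 8 genes. Cxcl9, Cxcl10, Cxcl12 and Cxcl13 were higher in stroma. Cxcl12 stood at 21.9, 42.3, 37.4 and 6.98 RPKM in stromal libraries and at 0.130, 0.00693, 0.0694 and 0.0496 in epithelial ones. Replicate 4, the lowest, was also the library with the highest fibroblast sum (2709 RPKM) and the lowest endothelial sum (34.3 against 119 to 177). The log2 difference of Cxcl12 was 7.42 ± 1.12 (edgeR adjusted p = 8.7e-04), the largest among the 8 genes in this comparison.

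Cxcl13 stood at 1.72, 1.99, 1.69 and 0.545 RPKM in healthy stroma and at most 0.182 in epithelium (3.06 ± 0.80, adjusted p = 0.0134). It was called in 5 of 6 alternatives with all libraries. Cxcl10 stood at 37.6, 68.1, 56.4 and 48.8 RPKM in stroma against 6.03, 1.60, 0.399 and 1.24 (3.29 ± 0.81, adjusted p = 0.0101). Cxcl9 stood at 5.60, 18.2, 12.5 and 2.58 RPKM against 0.105, 0.451, 0.318 and 0.123 (4.36 ± 0.72, edgeR adjusted p = 0.00134). The libraries of the 2 cell types did not overlap for any of these 4 ligands, and the T and natural killer cell markers summed to 4.18 to 22.1 RPKM in stroma and 0.116 to 0.789 in epithelium. Macrophage markers summed to 39.7 to 119 RPKM in stroma and 5.503 to 85.8 in epithelium, B cell markers to 1.81 to 8.59 and 0.0572 to 1.08, and neutrophil markers to 6.45 to 45.9 and 7.27 to 12.4. The part of leukocytes in the stromal values was not tested.

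These 4 of 7 members tested compare with 19.4% of 18468 genes called higher and 11.5% lower in stroma. Cxcl14 stood at 2.03, 1.39, 1.56 and 0.163 RPKM in stroma and at 0.00259, 0.00115, 0 and 0.0738 in epithelium, with no overlap. On TMM-scaled RPKM the groups overlapped, with the lowest stromal library at 0.114 and the highest epithelial library at 0.325. Cxcl14 was not called (3.80 ± 1.59, adjusted p = 0.0878 in edgeR). Leaving out epithelial replicate 4, limma-voom and the fit of all 40 libraries called it. Cxcl16 was not called (-0.16 ± 0.76, adjusted p = 0.893): stroma held 2.19 to 2.94 RPKM and epithelium 0.221 to 4.83. Of the interferon list, 11 of 19 genes tested were higher in stroma and 1 lower, among them Irf1 at 25.9 ± 6.0 against 1.84 ± 0.63 RPKM (2.73 ± 0.31, adjusted p = 2.2e-04 in edgeR). Ackr3, the second Cxcl12 receptor, was 14.7 ± 8.2 RPKM in stroma and 0.216 ± 0.053 in epithelium (4.92 ± 0.54, adjusted p = 1.9e-04).

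Tumor and healthy colon were compared in the same gates. In epithelial cells none of the 7 members tested was called, where 7.52% of 16085 genes were called higher and 7.88% lower, and 0 had an unadjusted p under 0.05 (edgeR). Cxcl10 stood at 4.59, 4.47, 22.3 and 12.996 RPKM in tumor epithelium and at 6.03, 1.60, 0.399 and 1.24 in healthy epithelium (1.21 ± 0.76, adjusted p = 0.297 in edgeR). Cxcl14 stood at 0.710, 0.258, 0.315 and 0.475 RPKM in the tumor, above every healthy library (2.57 ± 1.45, adjusted p = 0.243 in edgeR). On TMM-scaled RPKM the groups overlapped, with the lowest tumor library at 0.212 and the highest healthy library at 0.325. Without healthy replicate 4, the only healthy library with more than 3 counts, Cxcl14 was called (adjusted p = 0.00282), as it was in limma-voom. Cxcl16 stood at 1.71, 1.79, 6.29 and 4.42 RPKM in the tumor and at 4.83, 0.519, 0.641 and 0.221 in healthy epithelium, and was called only without healthy replicate 1, the library at 4.83 (2.08 in log2, adjusted p = 0.00949 in edgeR). Mitochondrial genes took 46.3% to 60.5% of counts in tumor and 48.6% to 83.9% in healthy epithelium.

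In stromal cells none of the 8 members was called, where 3.39% of 19081 genes were called higher and 5.01% lower, and 2, Cxcl13 and Cxcl16, had an unadjusted p under 0.05 (edgeR). Cxcl12 stood at 0.122, 0.313, 13.9 and 6.97 RPKM in tumor stroma and at 21.9, 42.3, 37.4 and 6.98 in healthy stroma (-2.10 ± 1.23, adjusted p = 0.332). The 2 low tumor libraries, replicates 1 and 2, are those almost without endothelial markers. Mitochondrial genes also took 55.4% and 62.9% of their counts, against 27.4% and 24.8% in replicates 3 and 4. The part of either difference was not tested. For Cxcl12, replicates 3 and 4 alone gave -1.13 ± 0.70 (adjusted p = 0.412 in edgeR). Cxcl9 split the same libraries, at 0.328 and 0.710 against 18.4 and 15.3 RPKM, as did Cxcl10, at 17.6 and 9.51 against 52.9 and 29.9. Neither was called between tumor and healthy stroma (0.09 ± 1.11, adjusted p = 0.972 and -0.65 ± 0.45, adjusted p = 0.413 in edgeR).

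Cxcl13 stood at 0.207, 0.186, 0.687 and 0.0790 RPKM in tumor stroma, and only replicate 3 exceeded the lowest healthy library at 0.545. Its log2 difference was -2.02 ± 0.69 (edgeR adjusted p = 0.105), called in DESeq2 (0.0215) and without tumor replicate 3 (0.0487). Cxcl16 stood at 5.41, 3.01, 2.49 and 3.60 RPKM in tumor stroma and at 2.94, 2.19, 2.73 and 2.82 in healthy stroma (0.81 ± 0.29, adjusted p = 0.119). Among partners, Ackr3 fell from 14.7 ± 8.2 to 1.84 ± 1.75 RPKM (-2.72 ± 0.69, adjusted p = 0.0415 in edgeR). Fibroblast markers were also lower in sum, as given above, and their part in the stromal values was not tested.

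**Figure D4:**
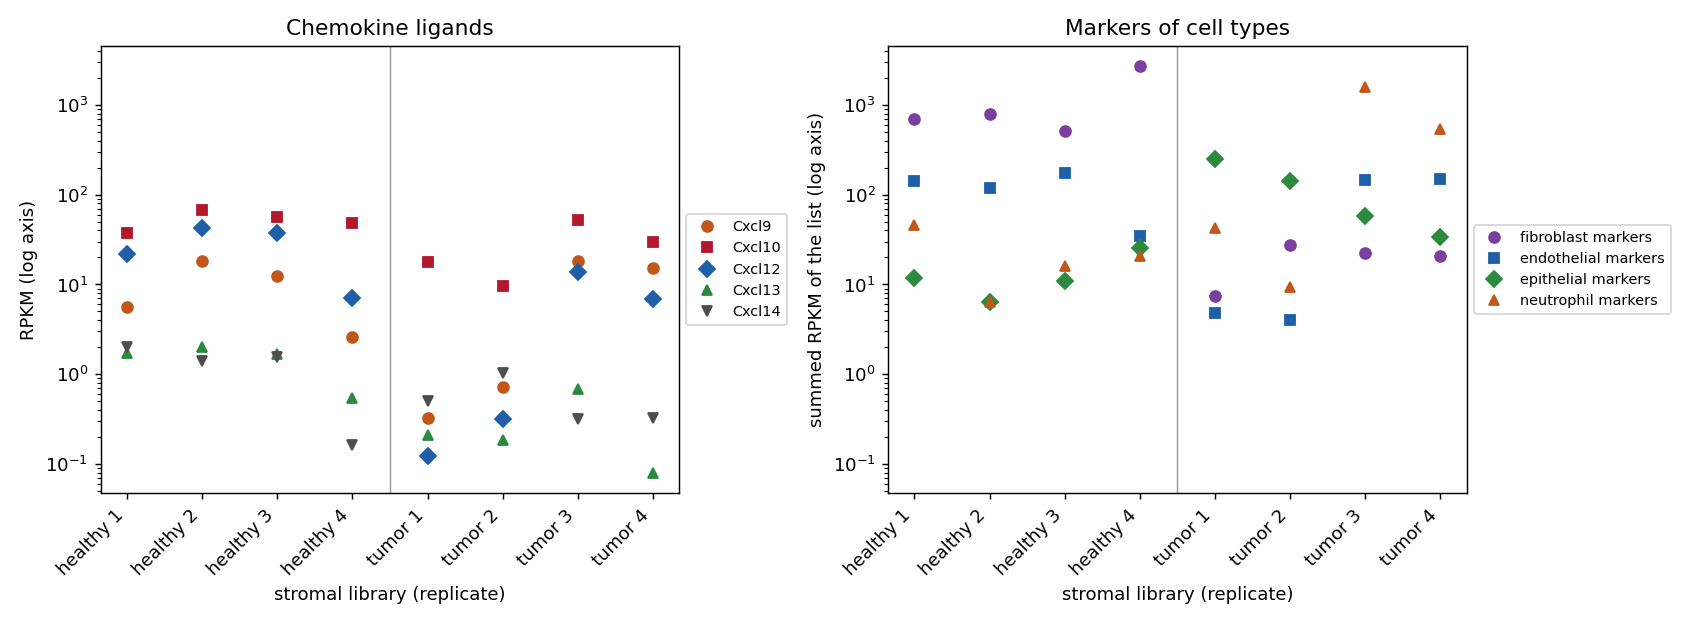
RPKM of 5 ligands (left) and summed RPKM of marker lists (right), on log axes, in the 4 healthy and 4 tumor stromal libraries. Cxcl12 and Cxcl9 are under 1 RPKM in tumor replicates 1 and 2, where endothelial markers sum to under 5 RPKM, and fibroblast markers are low in all 4 tumor libraries. Tumor replicates 1 and 2 also held mitochondrial shares of 55.4% and 62.9%.

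The difference between stromal and epithelial cells in their change from healthy to tumor was tested for 8 members. None was called, where 15.1% of 20901 genes were, and the lowest adjusted p was 0.125, for Cxcl13, the 1 member with an unadjusted p under 0.05 (edgeR). limma-voom called Cxcl10 (adjusted p = 0.0456) and Cxcl14 (0.0368), and DESeq2 Cxcl13 (0.0456).

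Inside the tumor, 1 fit of 16 libraries compared the 4 cell types in 6 contrasts. Over 48 tests of the 8 members, 12 were called. Tumor monocytes led for Cxcl16, whose 15.2 to 20.2 RPKM exceeded neutrophils by 3.27 ± 0.76 in log2 (adjusted p = 0.0106), epithelial cells by 2.60 ± 0.74 (0.0137) and stroma by 2.51 ± 0.74 (0.0224, edgeR). The background for calls higher in monocytes was 4% against neutrophils, 14.2% against epithelial cells and 6.9% against stroma. With the animal numbers of the titles as a block, the adjusted p for Cxcl16 was 0.0489 against neutrophils, 0.0546 against epithelial cells and 0.229 against stroma. The call against stroma was also lost without stromal replicate 2 (0.0530) or 3 (0.0601) and with stromal replicates 3 and 4 alone (0.0991). Cxcl16 did not overlap between tumor monocytes and any other tumor group.

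Cxcl10 was called higher in tumor monocytes than in neutrophils (3.44 ± 0.90, adjusted p = 0.0183) and epithelial cells (3.74 ± 0.91, adjusted p = 0.00555 in edgeR). Both calls were lost without monocyte replicate 1, with 1.08 (adjusted p = 0.169) and 1.37 (adjusted p = 0.0543) in log2. Cxcl9 was called higher in monocytes than in epithelial cells (6.78 ± 1.82, adjusted p = 0.00992), also without that replicate (adjusted p = 0.0406). With the animal numbers of the titles as a block, all 3 calls were lost (adjusted p of 0.297 and 0.275 for Cxcl10 and 0.143 for Cxcl9, edgeR). Neither ligand was called between tumor monocytes and tumor stroma (adjusted p = 0.302 for Cxcl9 and 0.0565 for Cxcl10, edgeR).

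Cxcl12 was carried by 2 of the 4 tumor stromal libraries, replicates 3 and 4, and replicate 1 at 0.122 RPKM lay below tumor neutrophil replicates 1 and 2 at 0.282 and 0.143. Over all 4, Cxcl12 was called higher in stroma than in epithelial cells (6.90 ± 1.58, adjusted p = 0.0196), neutrophils (4.72 ± 1.43, adjusted p = 0.0289) and monocytes, which lay 6.76 ± 1.57 lower in log2 (adjusted p = 0.00689, edgeR). The background was 4.08% and 4.07% of genes higher in stroma than in epithelial cells and neutrophils, and 13.4% lower in monocytes than in stroma, with 0.0105% and 12% lower in stroma for the first 2. The call against epithelial cells was lost without any epithelial replicate and without stromal replicate 3 (adjusted p from 0.0561 to 0.0764), and that against neutrophils without neutrophil replicate 3 or 4 or stromal replicate 3 or 4 (0.0528 to 0.0984). With the animal numbers as a block the adjusted p was 0.0124 against epithelial cells, 0.0900 against neutrophils and 0.0162 against monocytes. Cxcl12 was at most 0.282 RPKM in the other tumor groups, in neutrophil replicate 1.

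Cxcl13 was under the floor of 3 counts in all 4 tumor monocyte libraries. It was called lower there than in epithelial cells, stroma and neutrophils, against a background of 14.9%, 13.4% and 9.82% of genes called lower, with bounds of at least 5.71-fold, 5.55-fold and 5.72-fold. The neutrophil value rests on replicate 4 at 0.727 RPKM, the only one above the floor, and without it the adjusted p was 0.144. It was also lost on leaving out any 1 monocyte library (0.0530 to 0.0604), and the call against stroma was lost without monocyte replicate 4 (0.0502). With the animal numbers as a block all 3 Cxcl13 calls were lost (adjusted p of 0.0621, 0.175 and 0.196, edgeR). Cxcl13 in tumor epithelial cells stood at 0.671, 0.0571, 0.233 and 0.127 RPKM. Cxcl14 and the 2 receptors were called in none of the 6 contrasts. Between tumor epithelial cells and neutrophils no member was called, where 3.93% of genes were higher in epithelial cells and 17.6% lower, and 2, Cxcl9 and Cxcr3, had an unadjusted p under 0.05 (edgeR).

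The receptors stayed low throughout. Cxcr3 did not exceed 0.499 RPKM outside 1 library, replicate 2 of the blood monocytes of tumor-bearing mice at 1.08 RPKM and 122 counts. It was listed at 0 in 3 of 4 tumor neutrophil libraries and in 3 of 4 tumor epithelial libraries, and reached 0.203 and 0.134 RPKM in tumor stromal replicates 3 and 4, whose T and natural killer cell markers summed to 26.6 and 33.7 RPKM against 1.89 and 2.49 in replicates 1 and 2. Cxcr6 had group means from 0.114 RPKM in tumor epithelium to 1.13 in the blood monocytes of tumor-bearing mice and was called in no comparison. The Cxcr6 gene lies wholly inside Fyco1 on the opposite strand, and the counting is not stated to use strand, so its reads cannot be told from those of Fyco1. Fyco1 stood at 3.84 to 5.18 RPKM in the same blood monocytes. Cxcl10 lies inside Art3 and 552 bases of Cxcl16 overlap Zmynd15, both on the opposite strand, but Art3 did not exceed 4.34 RPKM and Zmynd15 not 0.985 RPKM in any library.

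By Pearson correlation of log2(RPKM + 1) over the 10 group means, among 4891 genes with a mean of at least 5 RPKM in some group, the closest patterns to Cxcl12 were those of Gja4 (r = 0.999), a gap junction gene of arterial endothelium, Tmem204 (0.999) and Gm2399 (0.999). For Cxcl16 they were Uck2 (0.965), the cytokine Lif (0.961) and Gm7327 (0.957). For Cxcl10 they were Gm8388 (0.959), Clic4 (0.954) and the chaperone Hspa5 (0.930), and for Cxcl9 Il7r (0.927), Prdm1 (0.925) and Dab2 (0.922). Cxcl13 was closest to Gpc3 (0.982), Dact1 (0.981) and Tpm2 (0.978), and Cxcl14 to Thbs2 (0.981), Slc38a2 (0.981) and Creb5 (0.980). Cxcr6 was closest to Tram2 (0.959), Stard9 (0.946) and Adam15 (0.911), and Cxcr3 to Gm18301 (0.821), Mir15a (0.808) and Gm7928 (0.807). The points share libraries and cell types, so these values are a description. Cxcl12 had group means of 27.1 and 5.32 RPKM in healthy and tumor stroma and at most 0.116 elsewhere. Its r thus rests mainly on the stromal groups and does not show a likeness to endothelium in particular.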

How the data were processed

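RNA of sorted cells was amplified with a kit that does not mark strand and, per the labels, mapped by the authors to mm10 with Bowtie 2. The deposited tables give expected counts (99.6% of nonzero values are not whole) and RPKM for 45706 genes; 45143 carry a symbol. The RPKM divisor is 0.650 to 1.57 times the library total, and how the authors set it is not given in the sources used here. Counts were rounded, which moved no total by more than 1105. edgeR 4.0.16 (R 4.3.3, limma 3.58.1) was used for quasi-likelihood tests with TMM scaling and its expression filter, on the libraries of each comparison, with Benjamini-Hochberg adjustment over all genes tested. A member that fails the filter is given as not tested. Alternatives included DESeq2 1.42.0 and limma-voom. Tests were checked on simulated data. Floors (3 counts per library) cover counting error only. Nothing states that replicates are separate animals throughout, so p-values measure the spread between these samples. Replicates differed by far more than counting error (60 pairs). The 8 genes and all lists were chosen with earlier results of these data known. Genes named beside the 8 were, per list and comparison, up to 4 with the highest mean RPKM, plus the 3 most alike by correlation; other called list genes were named after their values were seen. Promoters are from RefSeq. Replicate numbers did not pair samples: correlations of deviations ran from -0.31 to 0.42, and in 0 of 14 group pairs did every one exceed 0.1. Animal numbers in the titles, some shared between groups, did not enter that check, so it does not show that samples are unpaired. Values of some list members are not reported here.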

Additional observations from a re-analysis of the deposited data

Results flagged for a closer look

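Of 69 sets of 4 libraries with more than 3 counts in at least 1, 14 held a library whose gap to the nearest other exceeded Dixon's critical value. Normally distributed values pass it in about 1 of 20 sets. The RPKM values used here were not log-transformed and cannot fall under 0, so that share need not hold for them. Every flagged library lay above the others of its set. Tumor monocyte replicate 1 stood out for Cxcl9 (107 RPKM against 2.60 to 11.6), Cxcl10 (382 against 21.1 to 24.4) and Cxcr3 (0.0778 against 0 to 0.00777). Tumor neutrophil replicate 2 stood out for Cxcl9 (5.53 against 0.141 to 0.892) and replicate 4 for Cxcl13 (0.727 against 0.00253 to 0.0323) and Cxcr3 (0.107, with the others at 0). In the blood of tumor-bearing mice, monocyte replicate 1 stood out for Cxcl10 (3.61 against 0.481 to 0.942), monocyte replicate 2 for Cxcr3 (1.08 against 0.0486 to 0.0866) and neutrophil replicate 2 for Cxcl12 (0.0553 against 0.0119 to 0.0142). This blood monocyte replicate 1 and tumor monocyte replicate 1 carry the same animal number in their titles. So do tumor stromal replicate 1 and blood neutrophil replicate 1 of tumor-bearing mice, which did not stand out for Cxcl9 or Cxcl10. Cxcl9 stood at 0.328 and 0.0443 RPKM in these libraries, and Cxcl10 at 17.6 and 0.159. In healthy blood, neutrophil replicate 1 stood out for Cxcl12 (0.208 against 0.00749 to 0.0230), neutrophil replicate 2 for Cxcl13 (0.641 against 0.00759 to 0.0206) and monocyte replicate 2 for Cxcl12 (0.124 against 0.000321 to 0.00160). In healthy epithelium, replicate 1 stood out for Cxcl16 (4.83 against 0.221 to 0.641) and replicate 4 for Cxcl14 (0.0738 against 0 to 0.00259).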

How the results depend on the processing

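The 13 member results called between 2 groups and the 12 called among tumor cell types kept their direction in every alternative that tested them, while 11 of 33 and 15 of 36 uncalled ones, and 9 of 15 interaction estimates, changed sign in at least 1. Members called in tumor against blood neutrophils numbered 2, and 1 in limma-voom and with at least 10 counts in every library, 4 in DESeq2 and without the filter, 5 in 1 fit of all 40 libraries, 2 to 3 leaving out a library. Blood neutrophils of tumor-bearing against healthy mice gave 2, and 1 in limma-voom, at 10 counts, with the replicate block and over 40 libraries, 0 to 2 leaving out a library. Blood monocytes gave 0 and 2 in DESeq2. Tumor against healthy epithelium gave 0, 1 in limma-voom (0 to 1 leaving out a library), and stroma 0, 1 in DESeq2 (0 to 1). Healthy stroma against epithelium gave 4 and 2 at 10 counts (4 to 5), and healthy blood monocytes against neutrophils 2 and 0 at 10 counts (2 to 3). Tumor cell types gave 12, 2 at 10 counts, 3 with the animal numbers of the titles as a block and 8 with the replicate block (9 to 14). The stromal against epithelial interaction gave 0, 2 in limma-voom and 1 in DESeq2 (0 to 1). Neighbouring groups without overlap numbered 3, 1 on TMM-scaled RPKM (2 to 6 leaving out a library). DESeq2 gave Cxcl10 in tumor monocytes no adjusted p.

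Of the replicate numbers, which only share a label, the replicate block changed no other count by over 1.5 times. Signs of uncalled results that turned were those of Cxcr3 in blood monocytes (-0.10 with the replicate block, -1.08 to 1.67 leaving out a library), Cxcr6 in tumor epithelium (0.50 in limma-voom, 0.52 with the block, -0.65 to 1.12) and stroma (0.26 with tumor stromal replicates 3 and 4 alone, a setting added after seeing the data, and -1.67 to 0.66), Cxcl9 in tumor stroma (-0.99, -1.13 and -0.52 to 0.60) and Cxcl16 in healthy stroma against epithelium (0.87, 0.77, 0.0062 at 10 counts and -0.53 to 1.43). Leaving out a library alone turned Cxcl12 (-2.20 to 0.50) in blood neutrophils, Cxcl10 (-0.25 to 1.12) and Cxcl12 (-6.93 to 0.15) between healthy blood cells, Cxcl9 (-1.78 to 0.17) and Cxcl13 (-0.19 to 1.47) in tumor epithelium and Cxcr3 (-0.56 to 0.95) in tumor stroma. The causes were not tested. Of the 3 genes most like each member, 0 to 3 were shared under another pseudocount, mean limit or over 40 libraries. Low counts limit Cxcl13, Cxcl14 and Cxcr3 in leukocytes.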
